A study of Mus musculus with 56 samples.

Results

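Visceral adipose tissue (VAT, the fat around the abdominal organs) was compared between mice fed by day and mice fed by night at ZT12, the moment of lights-off. Of the 56 VAT libraries of the series, the 8 labelled ZT12 make up this comparison, 4 from daytime-restricted feeding (DRF) and 4 from nighttime-restricted feeding (NRF). All came from female C57BL/6J mice of 9 weeks, kept on normal chow in a 12 h light and 12 h dark cycle, that had been on their regimen for 7 days. NRF is the reference, since mice normally eat in the dark. ZT (zeitgeber time) counts hours from lights-on, so at ZT12 the light phase had ended, which is the feeding phase under DRF and the fasting phase under NRF. The labels do not say at which hour food was moved or whether it was moved before or after the ZT12 collection, and they do not say whether a library held RNA of more than 1 animal. The comparison thus combines feeding state with the phase of the tissue clock, and the design cannot tell them apart.

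White fat stores fatty acids as triglyceride when insulin is high after a meal and releases them by lipolysis in the fast. Insulin drives glucose uptake and glycogen synthesis and, with the factors SREBP1c and ChREBP, the making of fat, and it holds back FOXO factors, which switch on genes of the fasted state. Every cell also carries a circadian clock. In it, BMAL1 (gene Arntl) and CLOCK or NPAS2 bind E-box sequences and switch on the Per, Cry and Rev-erb (Nr1d1, Nr1d2) genes, whose proteins then shut off either these activators or the Arntl gene itself.

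The 4 DRF libraries held 33732952 to 38250454 reads on genes and the 4 NRF libraries held 35360761 to 36028212 reads (two-sided exact permutation test, p = 0.83), and 22411 to 23420 genes had a value above 0. The deposited values were converted back to reads and to CPM (the reads of a gene scaled to libraries of equal size), and were compared on the scale log2(CPM + 1). On this scale, the first principal component carried 62.7% of the variance and separated the DRF libraries from the NRF libraries without overlap, and Pearson correlations across genes were 0.986 to 0.991 within DRF, 0.984 to 0.993 within NRF and 0.947 to 0.977 between the groups. The tissue carried its label, since all 8 adipocyte markers were above 1 CPM, and their sum was 20675 to 26580 CPM under DRF and 32022 to 42887 CPM under NRF. Of 16 marker lists, 6 had sums that did not overlap between the groups, while 33.5% of all genes tested did not overlap. Each of the 6 sums was at the smallest p that 4 against 4 libraries can give (two-sided exact permutation test, p = 0.029). After adjustment over the lists, 0 passed (the 6 had an adjusted p of 0.076). Lower under DRF were the adipocyte, adipose progenitor and ovary sums, and higher were the endothelial, liver and pancreas sums. Within the adipocyte sum, the mean of Cfd was 4681 CPM under DRF and 13632 CPM under NRF. The liver sum rested on Alb and the pancreas sum on Cela1, while Ttr, Apoa1, Cpa1 and Ctrb1 were below 0.2 CPM in every library. The skeletal muscle sum differed most between libraries, from 6.43 to 67.9 CPM under DRF and from 26.4 to 149 CPM under NRF. In bulk tissue, fewer cells of a type and less RNA per cell cannot be told apart.

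At lights-off, 2500 of 14087 tested genes were higher under DRF and 2085 were lower, at an adjusted p under 0.05. This was 32.5% of the genes, 17.7% in the direction DRF higher and 14.8% in the direction DRF lower. Most differences were small, with 320 genes higher and 231 lower by at least 2-fold. The median difference over all genes was 0.021 on the log2 scale. In 4724 genes (33.5%), the ranges of the 4 DRF and the 4 NRF values did not overlap.

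Among 26 lists of genes, the medians of the members' differences ran from -1.20 for the clock output factors to 1.45 for cholesterol synthesis. Cholesterol synthesis and cell proliferation had the largest shares of members that moved one way, 19 of 20 and 14 of 14 higher under DRF. The list of the respiratory chain and ATP synthase held 20 genes, 1 of them Cs, citrate synthase, an enzyme of the citric acid cycle. Of the 20, 0 passed in limma with or without voom weights, and Cs alone had an unadjusted p under 0.05. The respiratory chain and ATP synthase genes themselves lay between -0.03 (Cox4i1) and 0.22 (Cyc1), and Cs at 0.46. Cs passed when CPM was taken from recovered totals (adjusted p = 0.043).

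**Figure D1:**
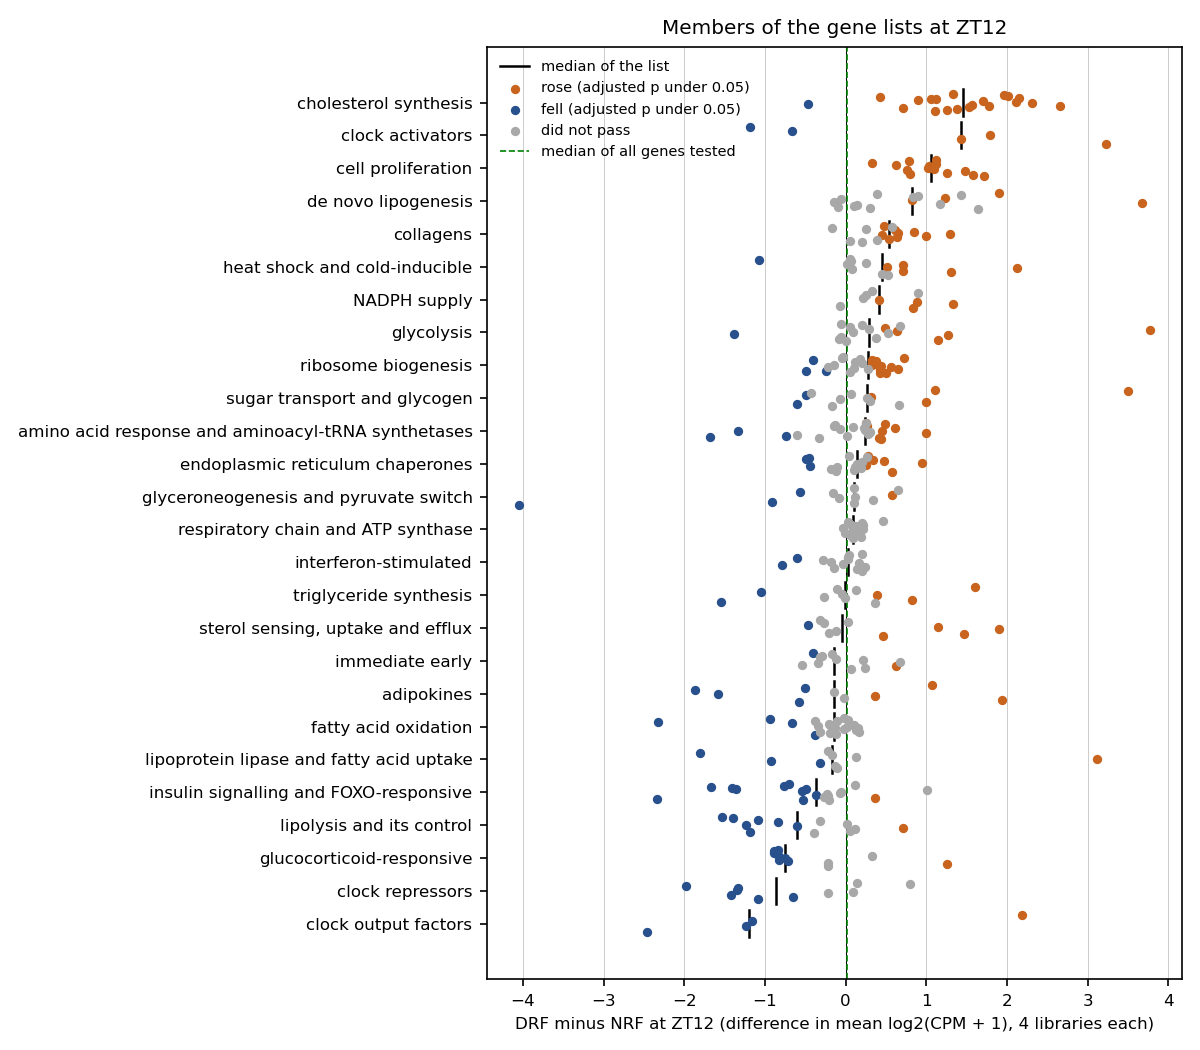
Each point is 1 gene of a list, placed by its difference between DRF and NRF at ZT12 in mean log2(CPM + 1) over 4 libraries each. Orange genes rose and blue genes fell at an adjusted p under 0.05, grey genes did not pass, the black bar is the list's median and the dashed line the median of all 14087 genes (0.021). Cholesterol synthesis stands at the top with a median of 1.45 and the clock output factors at the bottom with -1.20.

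Hephl1 had the largest rise under DRF. The gene, which encodes a copper-dependent ferroxidase related to hephaestin, measured 167, 83.1, 112 and 99.1 CPM under DRF and 2.18, 3.55, 4.89 and 9.09 CPM under NRF. No DRF library came near the NRF range (log2 difference 4.38, SE 0.32, adjusted p = 1.7e-05), and the gene lies at chr9:15051841-15112108 (build GRCm38). Podnl1, a leucine-rich repeat protein of the extracellular matrix, stood at 20.9 to 51.0 CPM under DRF and 0.582 to 1.69 CPM under NRF (log2 difference 3.79, SE 0.27, adjusted p = 1.7e-05). Ncan, the core protein of the proteoglycan neurocan, stood at 8.51 to 21.1 CPM under DRF and 0.507 to 2.84 CPM under NRF (log2 difference 2.68, SE 0.30, adjusted p = 0.00019). Prune2 had 107 to 202 CPM under DRF and 17.3 to 20.5 CPM under NRF (log2 difference 2.71, SE 0.18, adjusted p = 8.5e-06), and Pdzk1ip1, a small membrane protein, had 16.7 to 42.6 CPM under DRF and 0.532 to 3.71 CPM under NRF (log2 difference 3.13, SE 0.35, adjusted p = 0.00020). Cdkn1a, the cell cycle inhibitor p21, was measured at 82.3, 98.8, 84.2 and 143 CPM under DRF and 13.7, 9.13, 11.0 and 11.2 CPM under NRF. Its lowest DRF library was far above its highest NRF library, with a log2 difference of 3.05 (SE 0.17, adjusted p = 4.8e-06). The remaining 4 of the 10 largest rises without overlap of the groups were Scd2, Ppp1r3b, Arntl and Angptl8, which belong to the groups below.

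The largest fall was that of Pck1, which encodes phosphoenolpyruvate carboxykinase, the enzyme that turns oxaloacetate into phosphoenolpyruvate, a step of glyceroneogenesis in fasting fat. It was measured at 42.3, 329, 121 and 91.1 CPM in the DRF libraries and 2917, 1486, 2489 and 1128 CPM in the NRF libraries. The highest DRF library was well below the lowest NRF library (log2 difference -4.05, SE 0.52, adjusted p = 0.00046), and the gene lies at chr2:173153048-173159273 (build GRCm38). Nnat, an imprinted gene for a small membrane protein, varied among the DRF libraries, at 12.9, 110.4, 81.8 and 10.02 CPM under DRF and 232, 149, 398 and 209 CPM under NRF (log2 difference -2.75, SE 0.69, adjusted p = 0.013). Replicates 1 and 4 under DRF were low for Nnat, and replicates 2 and 3 lay closer to NRF. Inmt, a methyltransferase, stood at 18.7 to 31.2 CPM under DRF and 77.6 to 258 CPM under NRF (log2 difference -2.39, SE 0.30, adjusted p = 0.00039). Cyp2e1, a fasting-responsive cytochrome P450, was abundant in both groups, at 571 to 1397 CPM under DRF and 4041 to 8253 CPM under NRF (log2 difference -2.38, SE 0.31, adjusted p = 0.00046). Celsr2, a cadherin of the cell surface, fell by 2.40 on the log2 scale, Pcsk4, a proprotein convertase, by 2.48, and Mycl, a transcription factor, by 2.63. Dbp and Irs2 were also among the 10 largest falls without overlap and are described with their groups.

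Clock genes differed between the groups at lights-off. Of 5 activators, Arntl, Npas2 and Clock rose under DRF and 2 fell, against 17.7% and 14.8% of all genes. Arntl was measured at 16.05, 11.3, 17.6 and 14.8 CPM under DRF and 0.532, 0.767, 0.698 and 0.758 CPM under NRF. The NRF libraries were all under 1 CPM, and the mean CPM under DRF was 21.7-fold that under NRF, while the log2 difference of 3.23 (SE 0.13, adjusted p = 1.2e-06) understates this ratio because 1 was added to each CPM. Npas2 had 3.95, 3.66, 3.07 and 3.13 CPM in the DRF libraries and 0.203, 0.332, 0.295 and 0.298 CPM in the NRF libraries (log2 difference 1.79, SE 0.12, adjusted p = 8.5e-06), and these NRF values were low as well. Clock, which encodes the partner of BMAL1, moved less, at 89.7 to 98.3 CPM under DRF and 28.5 to 37.5 CPM under NRF (log2 difference 1.43, SE 0.09, adjusted p = 8.3e-06). Rora, which encodes a nuclear receptor that activates Arntl, fell, at 37.7 to 43.8 CPM under DRF and 57.6 to 75.6 CPM under NRF (log2 difference -0.66, SE 0.09, adjusted p = 0.00054).

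Of the 10 repressors, 6 fell under DRF, against 14.8% of all genes, and 4 did not pass. Ciart, a repressor of BMAL1 activity, was measured at 2.14, 2.85, 2.84 and 1.74 CPM under DRF and 11.9, 13.9, 14.2 and 9.60 CPM under NRF. This is the largest difference among the repressors (log2 difference -1.98, SE 0.15, adjusted p = 2.3e-05). Per3 had 42.8 to 62.2 CPM under DRF and 130.3 to 161 CPM under NRF (log2 difference -1.42, SE 0.12, adjusted p = 5.4e-05), Per1 had 38.5 to 87.8 CPM under DRF and 118 to 145 CPM under NRF (log2 difference -1.09, SE 0.20, adjusted p = 0.0030) and Per2 had 37.6 to 49.7 CPM under DRF and 60.8 to 70.8 CPM under NRF (log2 difference -0.65, SE 0.10, adjusted p = 0.00089), in each case without overlap. The 2 Rev-erb genes, whose proteins silence Arntl, fell by like amounts: Nr1d1 was at 43.7, 52.3, 55.6 and 55.4 CPM under DRF and 166, 142, 138 and 93.9 CPM under NRF (log2 difference -1.34, SE 0.16, adjusted p = 0.00024), and Nr1d2 was at 55.0 to 66.0 CPM under DRF and 146 to 160.2 CPM under NRF (log2 difference -1.33, SE 0.07, adjusted p = 4.8e-06). Nr1d1 overlaps Thra on the other strand, and the sources used here do not state whether counting used the strand, so reads of the 2 genes may be mixed. The fall of Per2 did not pass when all 56 libraries shared an estimate of the spread (adjusted p = 0.098). Cry1 and Cry2, the cryptochromes, did not pass, at 20.4, 12.8, 14.9 and 18.4 CPM in the DRF libraries and 16.5, 19.7, 18.8 and 22.5 CPM in the NRF libraries for Cry1 (log2 difference -0.22) and 66.4 to 83.4 CPM under DRF and 70.6 to 76.1 CPM under NRF for Cry2 (log2 difference 0.09). Bhlhe40 and Bhlhe41, the DEC factors, did not pass either, with log2 differences of 0.79 and 0.13. Bhlhe40 passed without DRF replicate 3 (adjusted p = 0.021), the library with the lowest DRF value of 63.6 CPM.

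The output factors bind D-box sequences and carry the rhythm to other genes. Of 4, 3 fell and 1 rose, against 14.8% and 17.7% of all genes. Dbp was measured at 40.4, 48.7, 50.5 and 43.0 CPM under DRF and 264, 260.2, 255 and 243 CPM under NRF. The spread within each group was small beside the difference (log2 difference -2.47, SE 0.08, adjusted p = 2.6e-07). Tef had 149 to 169.6 CPM under DRF and 374 to 383 CPM under NRF (log2 difference -1.23, SE 0.07, adjusted p = 4.8e-06) and Hlf had 22.4 to 27.1 CPM under DRF and 49.8 to 60.3 CPM under NRF (log2 difference -1.16, SE 0.09, adjusted p = 2.0e-05). These activators of the D-box all fell. Nfil3, which represses through the same sequence, rose, at 32.9, 33.8, 33.2 and 39.4 CPM under DRF and 9.45, 5.65, 7.84 and 5.22 CPM under NRF (log2 difference 2.18, SE 0.16, adjusted p = 1.5e-05). Over the 7 times of the series, group means of Dbp ran from 20.6 to 57.7 CPM under DRF and from 5.26 to 256 CPM under NRF, and those of Arntl from 11.2 to 31.5 CPM and from 0.689 to 40.4 CPM. A shift of the rhythm and a change of its range cannot be told apart at 1 time.

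**Figure D2:**
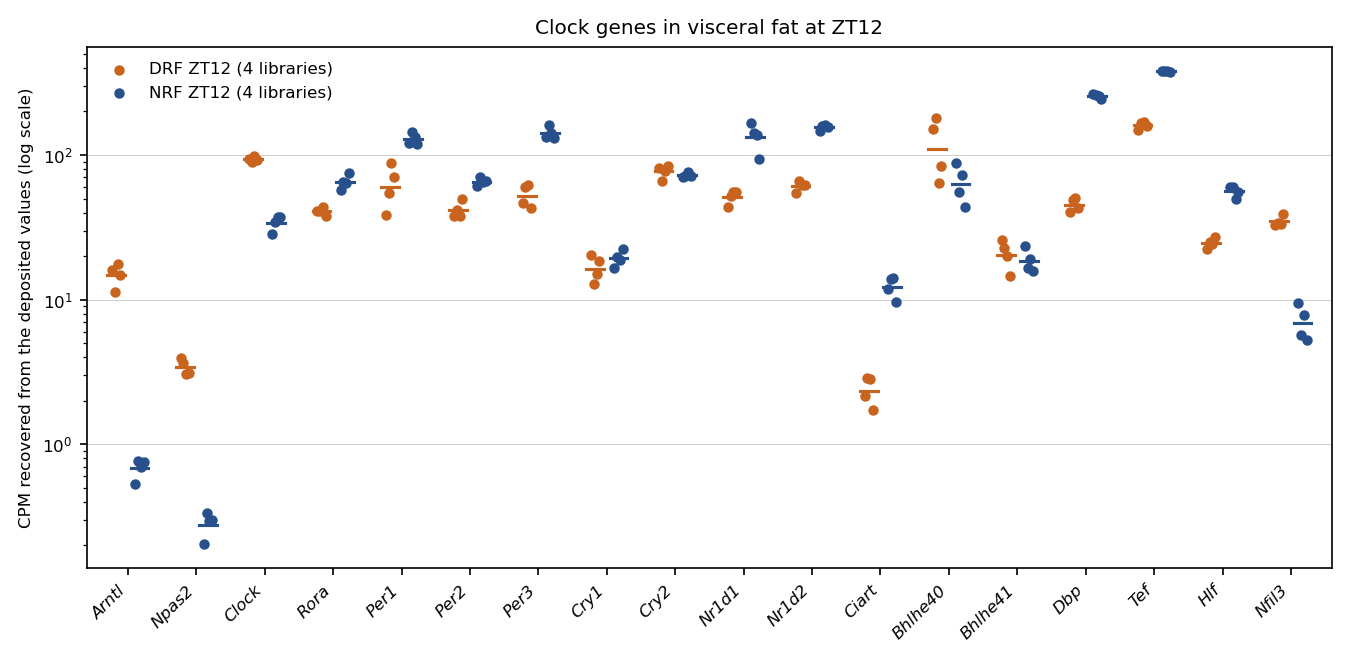
CPM of 18 clock genes at ZT12 on a log axis, with each library as a point (replicates 1 to 4 from left to right) and the geometric mean of 4 libraries as a bar, DRF in orange and NRF in blue. Arntl and Npas2 lie below 1 CPM in every NRF library and above 3 CPM in every DRF library, while the points of Cry1, Cry2, Bhlhe40 and Bhlhe41 overlap.

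The loop is known to work through short promoter sequences, and 6 promoters that hold a match are shown, 5 of clock genes and 1 of cholesterol synthesis. The windows are RefSeq promoters of build GRCm38.p6, from 250 bases before to 50 bases after a gene's start, read 5′ to 3′ on the strand of the gene. An E-box was searched as CACGTG, which reads the same on both strands, a ROR element as TAGGTCA and a sterol regulatory element (SRE) as TCACCCCAC, both on either strand. Of all 32851 windows, 7.15% held the E-box, 2.61% the ROR element and 0.551% the SRE. Counted by gene, with a match in any window of the gene, as in the lists, it was 8.09%, 2.97% and 0.614% of 27025 genes. The E-box was found in 4 of the 8 repressors with a window (Bhlhe41, Ciart, Cry1, Per1), 1 of 4 output factors (Tef), 0 of 4 activators, 3 of 15 genes of cholesterol synthesis (Dhcr7, Hsd17b7, Sc5d) and 3 of 7 genes of sterol sensing, uptake and efflux (Abca1, Insig1, Scap). The ROR element was found in 1 of 4 activators (Arntl), 1 of 4 output factors (Nfil3) and 1 of 15 genes of cholesterol synthesis (Dhcr7). Arntl and Per1 each have another window in the table that holds no match and is not shown. Matches are in capitals.
Ciart, chr3:95882179-95882478, minus strand, 3 E-boxes that start 116, 58 and 44 bases before the gene's start: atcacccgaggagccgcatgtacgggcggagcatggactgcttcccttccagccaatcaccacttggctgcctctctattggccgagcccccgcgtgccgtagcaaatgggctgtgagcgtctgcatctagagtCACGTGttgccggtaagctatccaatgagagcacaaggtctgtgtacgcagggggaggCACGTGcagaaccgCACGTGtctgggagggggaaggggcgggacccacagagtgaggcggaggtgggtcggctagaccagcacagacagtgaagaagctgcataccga
Per1, chr11:69098699-69098998, plus strand, E-box 166 bases before: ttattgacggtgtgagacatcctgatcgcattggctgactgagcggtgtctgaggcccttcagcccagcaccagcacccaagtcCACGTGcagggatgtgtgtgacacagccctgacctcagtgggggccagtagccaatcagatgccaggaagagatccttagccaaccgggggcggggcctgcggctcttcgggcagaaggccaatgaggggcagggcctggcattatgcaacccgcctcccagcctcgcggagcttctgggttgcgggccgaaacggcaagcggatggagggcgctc
Cry1, chr10:85185005-85185304, minus strand, E-box 60 bases before: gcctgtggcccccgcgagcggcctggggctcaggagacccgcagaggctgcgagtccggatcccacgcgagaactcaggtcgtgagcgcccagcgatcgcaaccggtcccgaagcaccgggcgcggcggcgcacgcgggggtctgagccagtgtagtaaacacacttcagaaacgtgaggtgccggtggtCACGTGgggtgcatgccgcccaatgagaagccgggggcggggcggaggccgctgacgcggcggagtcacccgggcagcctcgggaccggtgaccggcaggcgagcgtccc
Arntl, chr7:113207261-113207560, plus strand, ROR element 30 bases after: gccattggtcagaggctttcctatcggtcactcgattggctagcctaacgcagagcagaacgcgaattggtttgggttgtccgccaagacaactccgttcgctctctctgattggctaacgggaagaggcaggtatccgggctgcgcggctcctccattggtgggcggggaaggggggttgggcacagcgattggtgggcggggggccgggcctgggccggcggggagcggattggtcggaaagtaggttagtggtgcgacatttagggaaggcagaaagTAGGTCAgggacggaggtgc
Nfil3, chr13:52980990-52981289, minus strand, ROR element 12 bases before: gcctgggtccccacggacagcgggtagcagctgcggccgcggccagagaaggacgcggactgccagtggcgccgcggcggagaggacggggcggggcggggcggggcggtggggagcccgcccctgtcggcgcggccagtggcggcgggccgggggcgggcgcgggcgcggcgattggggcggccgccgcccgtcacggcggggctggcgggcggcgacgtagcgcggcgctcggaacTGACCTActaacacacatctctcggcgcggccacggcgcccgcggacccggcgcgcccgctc
Hmgcs1, chr13:119690101-119690400, plus strand, SRE 137 bases before: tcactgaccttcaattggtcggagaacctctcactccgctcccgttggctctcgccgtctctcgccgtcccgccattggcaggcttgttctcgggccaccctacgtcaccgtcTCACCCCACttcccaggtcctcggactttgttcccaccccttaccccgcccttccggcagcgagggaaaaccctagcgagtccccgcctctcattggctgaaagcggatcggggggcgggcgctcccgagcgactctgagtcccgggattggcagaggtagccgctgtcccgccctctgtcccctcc
Of the E-box genes shown, Ciart and Per1 fell under DRF and Cry1 did not pass. Arntl and Nfil3 rose. A match is a stretch of letters, and binding was not measured.

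Cholesterol synthesis was the list with the highest median. Its 20 enzymes turn acetyl-CoA into cholesterol and are switched on together by SREBP2 when sterol in the cell is low. Of them, 19 rose under DRF and 1 fell, against 17.7% and 14.8% of all genes, and the groups did not overlap in any of the 20. Mvd, mevalonate diphosphate decarboxylase, moved most, at 168, 84.1, 90.1 and 145 CPM in the DRF libraries and 13.3, 15.8, 15.98 and 28.3 CPM in the NRF libraries (log2 difference 2.66, SE 0.26, adjusted p = 9.3e-05). Sqle, squalene epoxidase, was measured at 111, 62.3, 75.9 and 100.4 CPM under DRF and 9.83, 16.3, 17.3 and 25.5 CPM under NRF (log2 difference 2.31, SE 0.25, adjusted p = 0.00018). Replicate 4 was the highest NRF library for both, and still below every DRF library. Hsd17b7 stood at 23.96 to 46.9 CPM under DRF and 4.83 to 8.33 CPM under NRF (log2 difference 2.15, SE 0.20, adjusted p = 7.3e-05) and Lss, lanosterol synthase, at 174 to 325 CPM under DRF and 28.8 to 77.3 CPM under NRF (log2 difference 2.11, SE 0.29, adjusted p = 0.00059). Hmgcs1, a synthase of an early step and the gene with the SRE shown above, was at 231, 208, 188 and 184 CPM under DRF and 81.1, 63.7, 99.1 and 96.7 CPM under NRF (log2 difference 1.26, SE 0.14, adjusted p = 0.00018). The SRE letters were found in 1 of the 15 genes of this list with a window. Fdft1, squalene synthase, was the exception, at 134, 89.3, 114 and 139 CPM in the DRF libraries and 169.8, 169.8, 150.4 and 161 CPM in the NRF libraries (log2 difference -0.47, SE 0.13, adjusted p = 0.019). Its fall did not pass without NRF replicate 2 (adjusted p = 0.053). Nor did it pass on the deposited values, fitted without the limma trend (adjusted p = 0.061). Fdps has many near-identical copies in the genome that can take its reads, so its level of 2.74 to 5.19 CPM under DRF and 0.325 to 0.806 CPM under NRF is uncertain.

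Genes that sense and import sterol had 4 of 10 members higher and 1 lower, against 17.7% and 14.8% of all genes. Insig1, which holds SREBP in the endoplasmic reticulum, had 752 to 1399.7 CPM under DRF and 264 to 732 CPM under NRF (log2 difference 1.46, SE 0.29, adjusted p = 0.0043), Stard4, a sterol carrier, had 31.3 to 45.02 CPM under DRF and 15.6 to 18.8 CPM under NRF (log2 difference 1.15, SE 0.11, adjusted p = 8.7e-05), and Srebf2, the gene of SREBP2 itself, had 62.4 to 72.9 CPM under DRF and 43.1 to 52.0 CPM under NRF (log2 difference 0.46, SE 0.08, adjusted p = 0.0021). Mylip, a ubiquitin ligase induced by sterol, fell by 0.47 (adjusted p = 0.024), which did not pass without DRF replicate 1 (adjusted p = 0.068) or NRF replicate 2 (adjusted p = 0.063). The efflux pumps Abca1 and Abcg1 did not pass, with log2 differences of -0.27 and 0.03.

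Of 16 genes of de novo lipogenesis, 4 rose (25.0%, against 17.7% of all genes) and 12 did not pass, with a median difference of 0.82. Scd2, a stearoyl-CoA desaturase, was measured at 3271, 1970.4, 2482 and 3054 CPM under DRF and 93.1, 194, 254 and 395 CPM under NRF (log2 difference 3.67, SE 0.36, adjusted p = 0.00010). The lowest DRF library was well above the highest NRF library. Pnpla3, a lipid droplet protein controlled by ChREBP and SREBP1c, stood at 574 to 763 CPM under DRF and 101 to 256 CPM under NRF (log2 difference 1.90, SE 0.25, adjusted p = 0.00047), Mlxipl, the gene of ChREBP, at 186 to 395 CPM under DRF and 96.3 to 141 CPM under NRF (log2 difference 1.24, SE 0.20, adjusted p = 0.0015), and Fads2, a fatty acid desaturase, at 40.1 to 65.6 CPM under DRF and 19.1 to 32.7 CPM under NRF (log2 difference 0.82, SE 0.19, adjusted p = 0.0092). The core enzymes did not pass. Acly, which makes acetyl-CoA from citrate, was at 11812, 5298, 7331 and 12319 CPM under DRF and 499, 4526, 3706 and 7053 CPM under NRF (log2 difference 1.64, 95% interval 0.08 to 3.21, adjusted p = 0.098). Fasn, fatty acid synthase, was at 31299, 20856, 24906 and 33657 CPM in the DRF libraries and 11468, 34274, 29233 and 35799.8 CPM in the NRF libraries (log2 difference 0.10, 95% interval -1.13 to 1.34, adjusted p = 0.90). For both, NRF replicate 1 was far below the other NRF libraries, and it was also the lowest for Elovl6, Acss2, Me1, Acaca and Thrsp. Without that library, the log2 difference was 0.82 for Acly (adjusted p = 0.13) and -0.28 for Fasn (adjusted p = 0.71), and Acss2, which makes acetyl-CoA from acetate, passed (0.81, adjusted p = 0.037). Without NRF replicate 4, 6 genes of the list rose. Scd1, the main desaturase of fat, could not be converted to CPM, and its deposited values, which compress differences, were 144.5 to 150.7 under DRF and 135.7 to 143.8 under NRF (two-sided exact permutation test, p = 0.029, the smallest possible).

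NADPH, the reducing power for fat synthesis, comes largely from the pentose phosphate pathway. Of 9 genes, 4 rose (all genes, 17.7%): Pgd, Rpia, G6pdx and Rpe. Pgd was at 1816, 1139, 1115 and 1863 CPM under DRF and 249, 628, 790.3 and 867 CPM under NRF (log2 difference 1.33, SE 0.36, adjusted p = 0.018), again with NRF replicate 1 lowest. Without DRF replicate 1, 2 of the 4 passed.

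Of 11 genes of triglyceride assembly, Mogat2, Agpat2 and Lpin2 rose (27.3%, against 17.7% of all genes) and Gpat3 and Dgat1 fell (18.2%, against 14.8%). Gpat3, an acyltransferase of the first step, was at 47.1, 60.1, 65.2 and 58.7 CPM under DRF and 179.6, 160.4, 189 and 152 CPM under NRF (log2 difference -1.55, SE 0.11, adjusted p = 1.4e-05), and Dgat1, which catalyses the last step, was at 291, 189, 208 and 242 CPM in the DRF libraries and 492, 474, 483 and 450.3 CPM in the NRF libraries (log2 difference -1.05, SE 0.13, adjusted p = 0.00030). Both fell without overlap. Agpat2, the acyltransferase of the second step, stood at 1335 to 2465 CPM under DRF and 824 to 1212 CPM under NRF (log2 difference 0.83, SE 0.21, adjusted p = 0.015), while Dgat2, the other enzyme of the last step, did not pass (log2 difference 0.13). Mogat2 stood at 26.3 to 66.7 CPM under DRF and 4.71 to 32.9 CPM under NRF (log2 difference 1.61, SE 0.47, adjusted p = 0.024), with NRF replicate 4 inside the DRF range, and did not pass without DRF replicate 1 (adjusted p = 0.069), DRF replicate 3 (adjusted p = 0.051) or NRF replicate 3 (adjusted p = 0.056).

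Genes of lipolysis and its control were lower under DRF in 7 of 13 cases, against 14.8% of all genes, with 1 higher and a median difference of -0.61. Lipe, hormone-sensitive lipase, was measured at 819.7, 903, 942 and 729 CPM under DRF and 1739, 1919.8, 2156 and 1907 CPM under NRF (log2 difference -1.19, SE 0.13, adjusted p = 0.00020). Pnpla2, the triglyceride lipase ATGL, did not pass (log2 difference -0.39). Adrb3, the fat cell's adrenergic receptor that starts lipolysis, fell by 0.84 (adjusted p = 0.0031). Of genes that restrain lipolysis, Pde3b, Hcar1 and Hcar2 fell, G0s2 rose and Adra2a did not pass (log2 difference -0.31). Pde3b, the phosphodiesterase through which insulin stops lipolysis, had 173 to 245 CPM under DRF and 422 to 459 CPM under NRF (log2 difference -1.09, SE 0.11, adjusted p = 9.3e-05). Hcar1, the lactate receptor, was at 40.5, 61.2, 57.6 and 63.5 CPM under DRF and 145, 158, 153 and 129 CPM under NRF (log2 difference -1.40, SE 0.13, adjusted p = 8.5e-05), and Hcar2, the receptor for ketone bodies and niacin, had 10.9 to 19.7 CPM under DRF and 30.2 to 54.8 CPM under NRF (log2 difference -1.53, SE 0.21, adjusted p = 0.00057). Of the lipid droplet coats, Cidec fell, at 1368 to 1611 CPM under DRF and 3083 to 4749 CPM under NRF (log2 difference -1.23, SE 0.18, adjusted p = 0.00083), and so did Plin1, by 0.61 (adjusted p = 0.011). G0s2, an inhibitor of ATGL, rose by 0.71 with overlap (adjusted p = 0.032), a call lost when any of 5 libraries was left out: DRF replicates 1, 2 and 4 and NRF replicates 1 and 2 (adjusted p between 0.061 and 0.088).

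Of the 8 adipocyte markers, 4 (Cfd, Cidec, Plin1 and Adipoq) fell, against 14.8% of all genes, Lep rose and Fabp4, Retn and Pparg did not pass, with the sums given above. Their part in the lipolysis result was not tested.

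**Figure D3:**
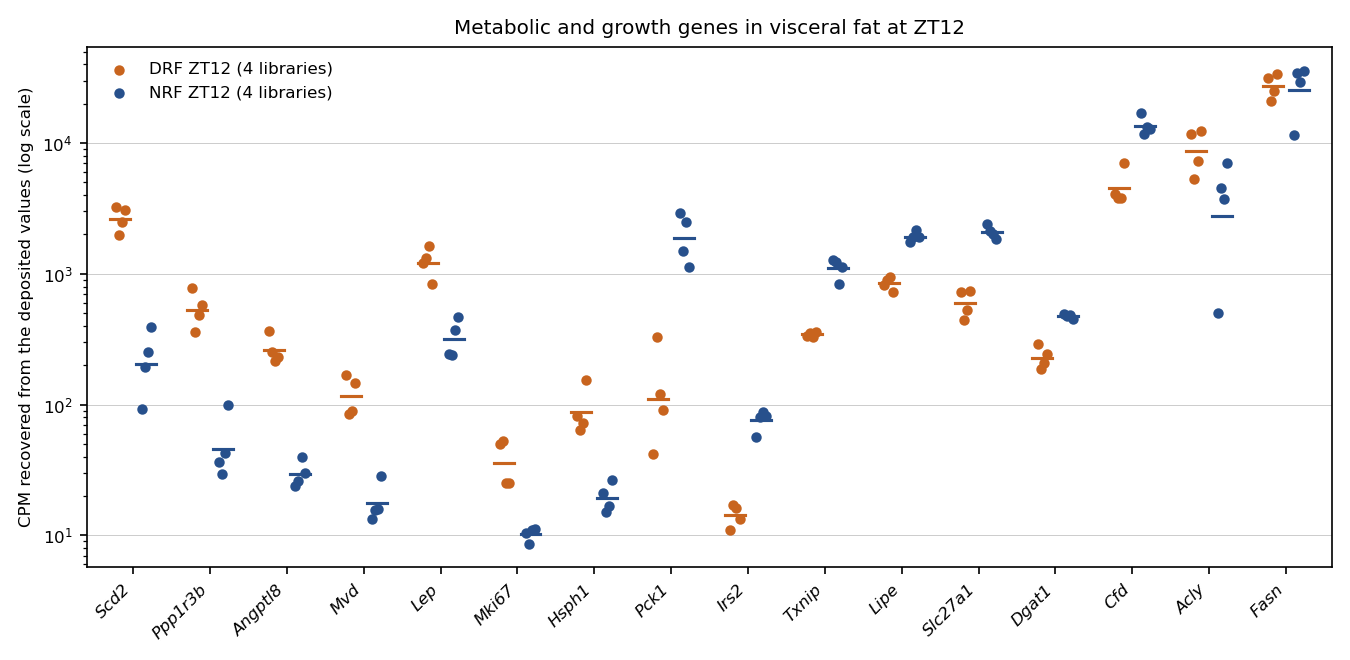
CPM of 16 metabolic and growth genes at ZT12 on a log axis, with each library as a point (replicates 1 to 4 from left to right) and the geometric mean of 4 libraries as a bar, DRF in orange and NRF in blue. Scd2 to Hsph1 lie higher under DRF and Pck1 to Cfd lower, without overlap, while Acly and Fasn overlap and have NRF replicate 1 far below the other NRF libraries.

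Most genes that steer pyruvate and glycerol beside Pck1 did not pass. Of 11, Gk rose (9.09%, against 17.7% of all genes) and Pck1, Pdk2 and Aqp7 fell (27.3%, against 14.8%). Pdk2, a kinase that shuts off pyruvate dehydrogenase, had 90.2, 77.4, 87.5 and 117 CPM in the DRF libraries and 256, 159, 155 and 147 CPM in the NRF libraries (log2 difference -0.92, SE 0.18, adjusted p = 0.0036), while Pdk4 did not pass (log2 difference -0.09). Aqp7, the channel by which glycerol leaves the fat cell, fell by 0.57 (adjusted p = 0.00061). Gk, glycerol kinase, rose by 0.58 with overlap (adjusted p = 0.019) and did not pass without NRF replicate 2 (adjusted p = 0.058).

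Of 19 genes of insulin signalling and of known FOXO targets, 10 fell (52.6%, against 14.8% of all genes), 1 rose and 8 did not pass, with a median difference of -0.37. Irs2, an insulin receptor substrate that FOXO1 switches on, was measured at 11.0, 17.1, 16.3 and 13.3 CPM under DRF and 57.1, 81.1, 88.1 and 82.5 CPM under NRF (log2 difference -2.34, SE 0.16, adjusted p = 1.0e-05). Insr, the insulin receptor, fell by 0.53 (adjusted p = 0.00040). Txnip, which limits glucose uptake, was at 336, 353, 332 and 359.5 CPM under DRF and 1268, 1223, 844 and 1129 CPM under NRF (log2 difference -1.67, SE 0.13, adjusted p = 2.7e-05), and Pik3ip1, an inhibitor of phosphoinositide 3-kinase, had 9.32 to 14.2 CPM under DRF and 22.8 to 48.1 CPM under NRF (log2 difference -1.40, SE 0.20, adjusted p = 0.00080). Fbxo32, the FOXO-driven ubiquitin ligase atrogin-1, fell by 1.36 and Klf15, a factor of the fasted state, by 0.76 (adjusted p = 0.00065 and 0.0020). The rise of Pik3r1, a regulatory subunit of the kinase, was small, with overlapping groups (log2 difference 0.37, SE 0.12, adjusted p = 0.044), and it was lost when any of 7 libraries was left out, all but DRF replicate 3 (adjusted p between 0.062 and 0.11).

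Of 13 genes of sugar transport and glycogen, 4 rose (30.8%, against 17.7% of all genes) and 2 fell (15.4%, against 14.8%). Ppp1r3b, which brings protein phosphatase 1 to glycogen and so activates its synthesis, was measured at 785, 361, 483 and 578 CPM in the DRF libraries and 36.1, 29.5, 42.8 and 98.6 CPM in the NRF libraries. The ranges were far apart (log2 difference 3.50, SE 0.34, adjusted p = 9.3e-05). Its relative Ppp1r3c had 65.0 to 89.0 CPM under DRF and 27.4 to 44.0 CPM under NRF (log2 difference 1.11, SE 0.16, adjusted p = 0.00082). The 2 glycogen synthases moved in opposite directions: Gys2, the liver form, rose, at 33.8 to 61.0 CPM under DRF and 11.4 to 31.3 CPM under NRF (log2 difference 1.00, SE 0.30, adjusted p = 0.026), and Gys1, the form of most tissues, fell, at 117 to 140.3 CPM under DRF and 175 to 214 CPM under NRF (log2 difference -0.60, SE 0.09, adjusted p = 0.0012). The rise of Gys2 did not pass without DRF replicate 1, NRF replicate 1 or NRF replicate 2 (adjusted p between 0.051 and 0.075). Without DRF replicate 1 or without NRF replicate 2, 2 genes of this list rose. Slc2a4, the insulin-responsive glucose transporter GLUT4, did not pass (log2 difference 0.66, 95% interval 0.06 to 1.26).

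In glycolysis, 5 of 17 genes rose (29.4%, against 17.7% of all genes) and 1 fell. Pfkp, a phosphofructokinase, was at 146, 136, 122 and 126 CPM under DRF and 54.9, 51.2, 52.8 and 58.7 CPM under NRF (log2 difference 1.27, SE 0.08, adjusted p = 7.3e-06), and Hk2, the insulin-responsive hexokinase, was at 247 to 424 CPM under DRF and 108 to 174 CPM under NRF (log2 difference 1.14, SE 0.19, adjusted p = 0.0016). Tpi1 and Pgam1 rose by 0.63 and 0.49. Pfkfb3, which makes the activator of phosphofructokinase, fell, at 183, 429, 314 and 189.5 CPM under DRF and 776, 621, 822 and 548 CPM under NRF (log2 difference -1.38, SE 0.26, adjusted p = 0.0030). Gapdh passed the test (log2 difference 3.78, SE 0.87, adjusted p = 0.0086), but it was at 252, 125, 7.68 and 179 CPM in the DRF libraries and 2.68, 5.91, 4.56 and 8.95 CPM in the NRF libraries, it has many near-identical copies that can take its reads, and DRF replicate 3 lay within the NRF range, so its level and its difference are uncertain.

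In fatty acid oxidation, 4 of 22 genes fell (18.2%, against 14.8% of all genes) and 18 did not pass, with a median of -0.15. Ppara, the receptor that drives these genes in the fast, was at 5.20 to 6.38 CPM under DRF and 7.77 to 14.5 CPM under NRF (log2 difference -0.93, SE 0.17, adjusted p = 0.0025). Ehhadh, an enzyme of peroxisomal oxidation, fell by 0.67 and Cpt1a, the gate of fatty acids into mitochondria, by 0.38. The 18 genes that did not pass lay between -0.38 (Etfb) and 0.17 (Acadm). Without DRF replicate 4, 7 genes of the list fell.

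Among 9 genes of lipoprotein lipase and fatty acid uptake, Angptl8 rose and Slc27a1, Angptl4 and Lmf1 fell (33.3%, against 14.8% of all genes). Angptl8, a feeding-induced regulator of lipoprotein lipase, was measured at 366, 252, 215 and 233 CPM under DRF and 23.9, 26.1, 39.5 and 30.1 CPM under NRF. The lowest DRF library was well above the highest NRF library (log2 difference 3.11, SE 0.18, adjusted p = 4.8e-06). Angptl4, the fasting-induced inhibitor, went the other way, at 113, 147, 102 and 98.0 CPM under DRF and 210.3, 185, 214 and 268 CPM under NRF (log2 difference -0.93, SE 0.14, adjusted p = 0.0011). Slc27a1, a fatty acid transporter, fell, at 447 to 736 CPM under DRF and 1847 to 2410.0 CPM under NRF (log2 difference -1.81, SE 0.18, adjusted p = 0.00010), and Lpl itself did not pass (log2 difference -0.11).

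Of 9 adipokines, 3 rose and 4 fell (33.3% and 44.4%, against 17.7% and 14.8% of all genes). Lep, leptin, the satiety hormone of fat, was measured at 1212, 1327, 1637 and 835 CPM in the DRF libraries and 245, 241, 371 and 466 CPM in the NRF libraries (log2 difference 1.94, SE 0.25, adjusted p = 0.00044). Apln and Rbp4 rose by 1.07 and 0.36. Nrg4, a growth factor that fat sends to the liver, was at 64.7, 55.0, 66.6 and 57.6 CPM under DRF and 193, 246, 242 and 220.4 CPM under NRF (log2 difference -1.87, SE 0.10, adjusted p = 4.8e-06). Cfd, adipsin, the most abundant of them, was at 4091, 3817, 3818 and 6997 CPM under DRF and 16859.6, 11706, 13251 and 12713 CPM under NRF (log2 difference -1.58, SE 0.31, adjusted p = 0.0036), with DRF replicate 4 above the other DRF libraries. Adipoq, adiponectin, had 1695 to 2235 CPM under DRF and 2838 to 3434 CPM under NRF (log2 difference -0.58, SE 0.16, adjusted p = 0.021), and it did not pass without DRF replicate 1 (adjusted p = 0.067) or after quantile normalisation (adjusted p = 0.36). Without DRF replicate 1, 2 of the 4 adipokines that fell passed. The call of Rbp4 was lost when DRF replicate 1 or 4 or NRF replicate 2, 3 or 4 was left out (adjusted p between 0.054 and 0.077).

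Genes known to respond to glucocorticoids, the stress hormones that in nocturnal mice peak near lights-off, were lower under DRF in 7 of 11 cases, against 14.8% of all genes, with 1 higher and a median of -0.75. On the deposited values, fitted without the limma trend, 4 of the 11 fell. Hsd11b1, the enzyme that regenerates active glucocorticoid within fat, was the one that rose, at 98.1, 88.8, 112 and 71.5 CPM in the DRF libraries and 35.2, 42.4, 35.7 and 37.2 CPM in the NRF libraries (log2 difference 1.26, SE 0.13, adjusted p = 0.00011). The metallothionein Mt1 had 35.1 to 55.0 CPM under DRF and 76.5 to 93.6 CPM under NRF (log2 difference -0.89, SE 0.13, adjusted p = 0.00084), Klf9, a glucocorticoid-induced repressor, had 83.3 to 108 CPM under DRF and 153 to 195 CPM under NRF (log2 difference -0.83, SE 0.10, adjusted p = 0.00032), and Tsc22d3, the leucine zipper protein GILZ, had 68.3 to 123 CPM under DRF and 132 to 190.3 CPM under NRF (log2 difference -0.71, SE 0.17, adjusted p = 0.0099). Cebpd, Sgk1, Errfi1 and Zbtb16 fell by 0.88, 0.83, 0.84 and 0.75. Fkbp5, another well-known target, did not pass, with 50.1, 67.6, 50.1 and 75.5 CPM under DRF and 116, 45.2, 56.8 and 79.2 CPM under NRF, and neither did Nr3c1, the receptor (log2 differences -0.22 and -0.22). Hormone levels were not analysed here.

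Of 13 heat shock and cold-inducible genes, 5 rose (38.5%, against 17.7% of all genes) and 1 fell. Hsph1, a large heat shock protein, was at 82.2, 64.1, 72.3 and 155 CPM under DRF and 20.995, 15.2, 16.7 and 26.6 CPM under NRF (log2 difference 2.12, SE 0.26, adjusted p = 0.00031), and DRF replicate 4 was the highest library. Hspa8, the constitutive HSP70, had 1086 to 1910.3 CPM under DRF and 472 to 755 CPM under NRF (log2 difference 1.31, SE 0.20, adjusted p = 0.00095), and Hsp90aa1 and Dnaja1 rose by 0.71 and 0.72. Cirbp, the cold-inducible RNA-binding protein, whose level falls as body temperature rises, was at 22.6, 24.8, 19.7 and 17.4 CPM in the DRF libraries and 47.9, 55.7, 44.8 and 35.0 CPM in the NRF libraries (log2 difference -1.08, SE 0.14, adjusted p = 0.00054). Rbm3, the other cold-inducible gene, did not pass (log2 difference 0.05). Of 19 chaperones of the endoplasmic reticulum, 6 rose, led by Sdf2l1 (0.95) and Hspa5, the chaperone BiP (0.58), and 3 fell: Xbp1, Herpud1 and Dnajb9. These are 31.6% and 15.8% of the list, against 17.7% and 14.8% of all genes. On the deposited values, fitted without the limma trend, 3 rose and 1 fell. Without DRF replicate 2, 3 of these chaperones rose, and without NRF replicate 2, 2 did. Without DRF replicate 1, 1 fell.

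Of 24 genes of the amino acid response and tRNA charging, 8 rose (33.3%, against 17.7% of all genes) and 3 fell (12.5%, against 14.8%). Mthfd2, a folate enzyme of mitochondria, stood at 7.63 to 12.4 CPM under DRF and 3.76 to 5.25 CPM under NRF (log2 difference 1.00, SE 0.15, adjusted p = 0.00090) and Iars, an aminoacyl-tRNA synthetase, at 41.8 to 51.7 CPM under DRF and 27.0 to 32.4 CPM under NRF (log2 difference 0.61, SE 0.09, adjusted p = 0.0012), while Chac1, Ddit4 and Psat1 fell by 1.68, 1.33 and 0.74. Without DRF replicate 1, 5 genes of the list rose, and without NRF replicate 2, 4 did. Of 25 genes of ribosome biogenesis, 12 rose (48%, against 17.7% of all genes) and 3 fell (12%, against 14.8%). Heatr1 led the rises, at 23.3, 22.7, 25.4 and 26.1 CPM under DRF and 12.9, 12.5, 15.3 and 17.3 CPM under NRF (log2 difference 0.72, SE 0.11, adjusted p = 0.00093), followed by Rrp12 and Bop1 (0.65 and 0.56). Npm1, nucleophosmin, fell by 0.49. The 12 immediate early genes held 1 rise (Jun, 0.63) and 1 fall (Btg2, -0.41), 8.33% of the list in each direction against 17.7% and 14.8% of all genes, and each was lost when any of 6 libraries was left out. Fos and Egr1 varied most, with 3.35, 7.73, 7.96 and 9.27 CPM under DRF and 1.14, 19.1, 19.1 and 2.41 CPM under NRF for Fos and 20.4, 15.8, 24.8 and 19.2 CPM in the DRF libraries and 7.14, 61.9, 63.1 and 13.9 CPM in the NRF libraries for Egr1.

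All 14 genes of cell proliferation rose, against 17.7% of all genes, with a median of 1.06. In the fit of all 56 libraries, 12 rose at ZT12. The median of the list was above 0 at each of the 7 times, from 0.44 at ZT24 to 1.06 at ZT12, with 0.70 at ZT8 and 0.62 at ZT16. In 0 of the 14 genes did the difference at ZT12 pass as another than that at ZT8 or ZT16. Mki67, the Ki-67 antigen of cycling cells, was at 49.7, 52.3, 25.3 and 25.3 CPM under DRF and 10.5, 8.64, 10.9 and 11.2 CPM under NRF (log2 difference 1.72, SE 0.23, adjusted p = 0.00057). DRF replicates 1 and 2 had the highest values of Mki67, and replicates 3 and 4 were still above every NRF library. Top2a, the topoisomerase of dividing cells, was at 32.5, 38.6, 17.9 and 22.8 CPM under DRF and 7.60, 6.34, 10.5 and 9.41 CPM under NRF (log2 difference 1.58, SE 0.22, adjusted p = 0.00069), Ccna2, cyclin A2, had 7.89 to 13.9 CPM under DRF and 2.51 to 3.71 CPM under NRF (log2 difference 1.48, SE 0.17, adjusted p = 0.00021) and Mcm2, a subunit of the replication helicase, had 12.6 to 21.9 CPM under DRF and 5.82 to 8.99 CPM under NRF (log2 difference 1.03, SE 0.18, adjusted p = 0.0019). Pcna, the sliding clamp, rose least (0.32), and its groups overlapped, as did those of Cdk1. Only 7 of the 14 had a mean of at least 3 on the log2(CPM + 1) scale. Which cells carried them was not measured: the summed macrophage markers were 588 to 781 CPM under DRF and 677 to 863 CPM under NRF, the endothelial markers 745 to 845 and 674 to 731 CPM, the progenitor markers 1509 to 1848 and 1861 to 2399 CPM, and the neutrophil markers 1.82 to 2.97 and 1.64 to 2.05 CPM. Their part in the result was not tested.

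Of 15 collagen genes, 9 rose, against 17.7% of all genes, and 6 did not pass, with a median of 0.54. Col5a3 was at 646, 571, 489.9 and 332 CPM in the DRF libraries and 147, 179, 252 and 253 CPM in the NRF libraries (log2 difference 1.29, SE 0.23, adjusted p = 0.0022), Col5a1 at 190.2 to 369 CPM under DRF and 98.8 to 142 CPM under NRF (log2 difference 1.00, SE 0.19, adjusted p = 0.0032) and Col6a2 at 354 to 693 CPM under DRF and 224 to 308 CPM under NRF (log2 difference 0.84, SE 0.18, adjusted p = 0.0063). The basement membrane chains Col4a1 and Col4a2 rose by 0.54 and 0.63. The main fibrillar chains did not pass, Col1a1 with 323, 657, 327 and 311 CPM under DRF and 422, 275, 317 and 332 CPM under NRF (log2 difference 0.20) and Col3a1 with a log2 difference of 0.39. DRF replicate 2 was the highest of the 8 libraries for most of these genes. Without NRF replicate 2, 5 collagen genes rose, and without DRF replicate 2, 6 did. Of the progenitor markers, which mark cells that make much of the collagen, Pdgfra and Dcn fell by 0.69 and 0.56 and Cd34 rose by 0.43. Among 6 endothelial markers, 3 rose (50%, against 17.7% of all genes). Their sum was 745 to 845 CPM under DRF and 674 to 731 CPM under NRF. The part of the progenitor and endothelial markers in the collagen result was not tested. Of 14 interferon-stimulated genes, 2 fell (14.3%, against 14.8% of all genes) and 12 did not pass. Irf7, an interferon regulatory factor, fell by 0.79 (adjusted p = 0.00021).

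The same contrast was then set against other hours of the day, with the difference between the differences tested in a fit of all 56 libraries. ZT24 lies 12 h away, at lights-on, at the end of the dark phase in which the NRF mice were fed. There, 4882 of 14087 genes (34.7%) had another DRF to NRF difference than at ZT12, 2712 (19.3%) more positive and 2170 (15.4%) more negative at ZT12. Of the 4585 genes called at ZT12, 3425 (74.7%) had the opposite sign at ZT24, and 1421 (31.0%) were called there in the opposite direction, against 141 (3.08%) called in the same direction. Over all genes tested, 62.3% had the opposite sign, and 1549 of 14087 were called higher and 1514 lower under DRF at ZT24.

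Among the genes named for this contrast, Pck1 had the most negative change. Its difference was -4.05 at ZT12 and 3.83 at ZT24, a change of -7.88 (SE 0.89, adjusted p = 2.4e-09). Hephl1 went from 4.38 to -1.65, Ppp1r3b from 3.50 to -2.24 and Scd2 from 3.67 to -1.68. Dbp went from -2.47 to 2.71 and Nnat from -2.75 to 1.97. Libraries labelled ZT0, also at lights-on, gave 4764 genes in place of the 4882, and differences of 2.12 for Pck1, -0.85 for Hephl1, -0.17 for Ppp1r3b, -1.24 for Scd2, 3.05 for Dbp and 0.72 for Nnat. Those of the named genes other than Dbp were nearer to zero than at ZT24. In the cholesterol list, 17 of 20 genes were more positive and 1 more negative at ZT12 than at ZT24, and the median was 1.45 at ZT12 and -0.62 at ZT24. In ribosome biogenesis 16 of 25 were more positive at ZT12 (median 0.28 against -0.32), and in fatty acid oxidation 15 of 22 were more negative (median -0.15 against 0.46). In proliferation 4 of 14 genes were more positive at ZT12 (medians 1.06 and 0.44), and in glycolysis 2 of 17 genes differed in each direction. Of all genes, 19.3% were more positive and 15.4% more negative at ZT12 than at ZT24.

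**Figure D4:**
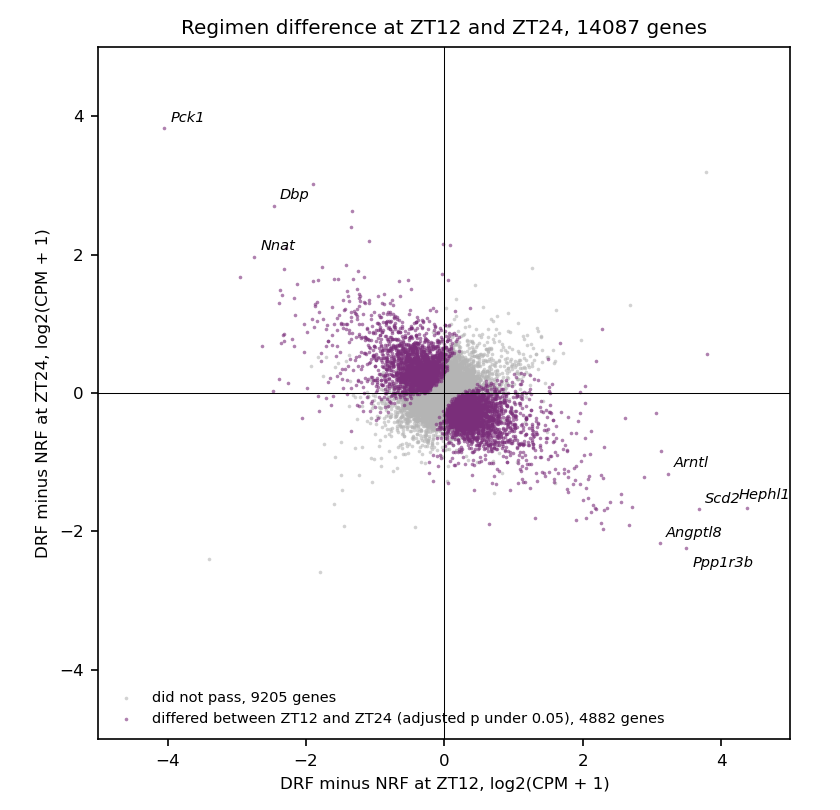
Each point is 1 of 14087 genes, with its DRF minus NRF difference in mean log2(CPM + 1) at ZT12 on the horizontal and at ZT24 on the vertical axis. The 4882 purple genes differed between the times at an adjusted p under 0.05, and they lie mostly in the upper left, as Pck1 and Dbp do, or in the lower right, as Scd2 and Ppp1r3b do.

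ZT8 lies 4 h earlier, within the light phase. There, 20 of 14087 genes (0.142%) differed between ZT8 and ZT12, 7 (0.0497%) more positive and 13 (0.0923%) more negative at ZT12. In this limma test, 964 genes had an unadjusted p under 0.05. Of the genes called at ZT12, 4.69% had the opposite sign at ZT8, against 20.2% of all genes tested. Usp2, a ubiquitin-specific protease with a strong daily rhythm, went from 0.39 at ZT8 to -1.06 at ZT12 (adjusted p = 0.027), and Wee1, a clock-controlled kinase that holds back mitosis, from 0.77 to -0.57 (adjusted p = 0.024). Of the clock genes, named here after their values were seen, Cry1 went from 1.30 to -0.22 (adjusted p = 0.0022) and Hlf from -0.04 to -1.16 (adjusted p = 0.030). Crtac1, a matrix protein, went from 0.65 to -1.77 (adjusted p = 0.0059). In the other direction, Cnr1, the cannabinoid receptor CB1, went from -0.01 to 1.53 (adjusted p = 0.012). Ccdc28b and Casp9 rose by 0.60 and 0.48 relative to ZT8, and Ccdc28b (adjusted p = 0.050) did not pass without DRF ZT8 replicate 1 (adjusted p = 0.078). Leaving out DRF ZT8 replicate 1 gave 47 genes.

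ZT16 lies 4 h into the dark phase. The DRF to NRF difference changed in 2339 genes (16.6%), with 1411 more positive and 928 (6.59%) more negative at ZT12, and 37.8% of the genes called at ZT12 had the opposite sign at ZT16, against 40.7% of all genes tested. Ppp1r3b went from 3.50 at ZT12 to -2.83 at ZT16 (adjusted p = 2.9e-07), Angptl8 from 3.11 to -1.96 (adjusted p = 5.1e-05) and Smtnl2, a smoothelin-like protein, from 2.05 to -2.32 (adjusted p = 1.0e-07). Pck1 went from -4.05 to 2.38 (adjusted p = 1.2e-06), B3galt2, a galactosyltransferase, from -1.84 to 1.66 and Nr1d1 from -1.34 to 2.29. Dbp kept its sign, at -2.47 and -1.51 (adjusted p = 0.081). Of the 10 repressors 3 were more positive and 3 more negative at ZT12 than at ZT16. In ribosome biogenesis 15 of 25 genes were more positive at ZT12 than at ZT16, and in cholesterol synthesis 9 of 20 were, against 1411 of all 14087 genes.

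**Figure D5:**
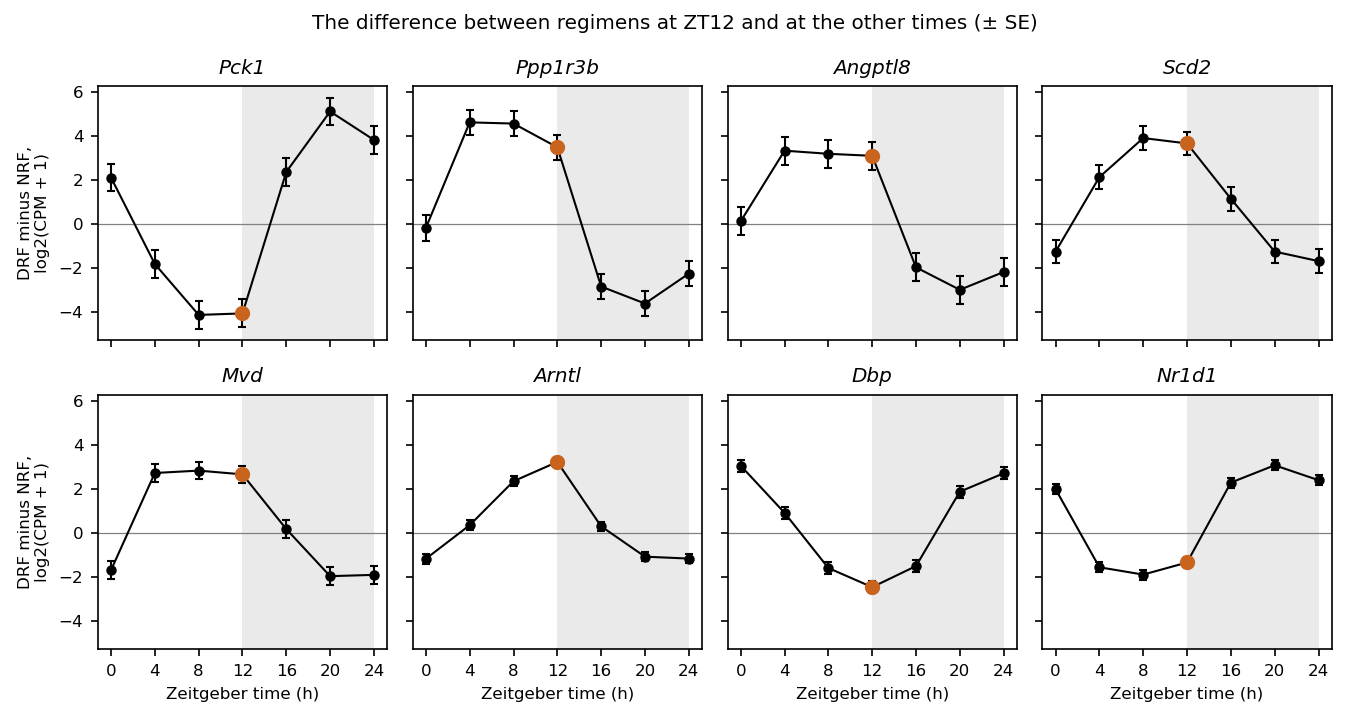
DRF minus NRF difference in mean log2(CPM + 1) of 8 genes at 7 time points, with the SE from the fit of all 56 libraries as error bars, ZT12 in orange and the dark phase shaded. Pck1 is at -4.05 at ZT12 and at 2.38 at ZT16, Ppp1r3b and Angptl8 cross zero in the opposite direction between these times, and Arntl, at 3.23, has its highest difference of the 7 times at ZT12.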

How the data were processed

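RNA of mouse VAT was sequenced (poly(A) libraries, paired-end), and the authors aligned it to mm10 with HISAT2 2.0.5 and counted it with featureCounts 1.5.0-p3, per the submitters' processing notes. The values the authors deposited as TPM are here treated as a score: they equal log2(CPM + 1) divided by gene length and rescaled per library, and are not linear TPM. Multiplying by exon length and undoing the scaling gave back log2(CPM + 1) and reads. The length came from GENCODE vM21 or, for 900 genes, was searched for as the length that made the values whole reads. Scd2 and Angptl4 were among the 900. The GENCODE length was kept in 24836 genes because nearly all their tested values came out whole with it. With these lengths, 180421 of the ZT12 values were tested and were whole reads within 0.02. Since wholeness also chose the lengths, this count is not a separate check of them. The reads of 201 genes were too abundant for this test. Scd1 and Camk4 could not be recovered. The planned tests were kept.

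DRF and NRF at ZT12 (4 libraries each) were compared with limma 3.58.1 (lmFit, eBayes with trend, two-sided, Benjamini-Hochberg over all genes tested) in R 4.3.3, for genes with a mean log2(CPM + 1) of at least 1. The pseudocount of 1 understates changes of low genes. Differences between times came from a fit of 14 groups. Exact permutation tests were used for single values. Named genes were the 10 largest rises and falls among protein-coding genes with groups that do not overlap and a mean of at least 2. The 3 largest of each list in each direction and all clock genes were also named. The 3 largest differences between times in each direction were named under the same conditions at ZT12. Larger differences in genes whose ZT12 groups overlap could thus not enter. Other list members are named as examples after their values were seen. Some members named by this rule are not reported here. Members and lists were chosen with earlier results of these data known. The labels give no batch and do not say whether libraries hold single animals, so p-values measure the spread between these libraries. On simulated data of 14088 genes with the real means, 50 genes were changed at each fold. Of these, 41 of 50 changed 1.5-fold, 41 of 50 changed 2-fold and 48 of 50 changed 4-fold were recovered, and 11 unchanged genes were called. The share of genes changed there was far below the 32.5% called in the data, so these rates may not carry over. The alternatives were other filters, scalings, pseudocounts, weights and left-out libraries.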

Additional observations from a re-analysis of the deposited data

Results flagged for a closer look

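In 12 of 292 groups of 4 libraries, 1 library lay far from the other libraries of its group, where chance gives about 1 in 20. The gap to the nearest library, as a share of the group's range on the log2 scale, was 0.8913 for Cyp2e1 in NRF replicate 1, 0.8545 for Nfil3 in DRF replicate 4, 0.8616 for Pdk2 in NRF replicate 1, 0.8857 for Cfd in DRF replicate 4 and 0.8563 for Hspa5 in NRF replicate 2. It was 0.9016 for Gys1 in DRF replicate 2 and 0.8823 for Gys1 in NRF replicate 1, 0.8616 for Dnajb9 in DRF replicate 4 and 0.8379 for Dnajb9 in NRF replicate 1, and 0.875 for Chac1 in DRF replicate 2. For summed markers it was 0.8806 for macrophages and 0.8378 for neutrophils, both in NRF replicate 3.

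The difference between DRF and NRF at ZT12 was not that at another time in 20 genes for ZT8, 2339 for ZT16 and 4882 for ZT24, by the test of the difference itself. Against ZT8, the changes on the log2 scale were 1.536 for Cnr1, 0.6047 for Ccdc28b, 0.4839 for Casp9, -2.42 for Crtac1, -1.453 for Usp2 and -1.343 for Wee1. Against ZT16, they were 6.327 for Ppp1r3b, 5.068 for Angptl8, 4.363 for Smtnl2, -6.43 for Pck1, -3.631 for Nr1d1 and -3.494 for B3galt2. Against ZT24, they were 6.031 for Hephl1, 5.74 for Ppp1r3b, 5.348 for Scd2, -7.884 for Pck1, -5.174 for Dbp and -4.723 for Nnat.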

How the results depend on the processing

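The count of 4585 genes ran from 3273 (without NRF replicate 2) to 4131 (without DRF replicate 2) when 1 library was left out, with 1789 to 2283 genes higher and 1484 to 1872 lower, 273 to 355 higher by at least 2-fold and 207 to 256 lower by at least 2-fold. At an adjusted p under 0.01 it was 2331, with 1290 higher and 1041 lower. With a filter at a mean of at least 3, which tests fewer genes, 203 genes were higher and 152 lower by at least 2-fold, and voom weights gave 367 lower; the cause of the latter was not tested. The difference from ZT8 counted 32 genes with CPM from recovered totals and 47 without DRF ZT8 replicate 1. On the deposited values the median difference of all genes was 0.30 in the units of that score. These are not log2 units, so this median cannot be set beside that on the log2(CPM + 1) scale. Samples of different regimens that share a number did not deviate together, with correlations from -0.107 to 0.117, and a fit with the replicate number as a block called 3950 genes, 2132 higher and 1818 lower. Of 125 named genes called, 102 kept their call under each of the 17 settings in which they were tested, and 0 changed direction. With the filter at a mean of at least 3, only 123 of the 130 named genes were tested. With the filter at 3, 1 clock activator and 7 proliferation genes rose. With the deposited values, fitted without the limma trend, 1 NADPH gene and 3 chaperones rose and 4 glucocorticoid-responsive genes fell. That setting changed the scale and the trend together, and their parts were not separated. With quantile normalisation, 7 genes of fatty acid oxidation fell. At this depth, genes under a mean of 1 were not tested.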
